A study of Arabidopsis thaliana with 4 samples.

Results

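The genes at the entry of sucrose carbon into metabolism and starch were examined in Arabidopsis thaliana roots at high and low phosphate. They were chosen by name and identifier, with earlier results of these data known. The list holds the sucrose synthase genes SUS1 to SUS4, the ADP-glucose pyrophosphorylase genes APS1 and APL1 to APL4, and the glucose 6-phosphate translocator gene GPT2. These are 10 of the 27655 genes in the deposited table. The roots came from wild-type Col-0 seedlings kept for 8 days on medium whose phosphate was 625 µM in the group called plus_Pi and 5 µM in the group called low_Pi, and each group had 2 RNA sequencing libraries. Dark growth is named only in the title of the deposited table, and the sample labels do not give the light conditions. The study concerns cis-zeatin, a cytokinin, in the root response to phosphate starvation, and the labels give no other treatment or genotype.

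Sucrose arrives in roots through the phloem and is split either by invertases or by sucrose synthases. Sucrose synthase uses UDP to make UDP-glucose and fructose in a reversible reaction, so the energy of the sucrose bond is kept. ADP-glucose pyrophosphorylase makes ADP-glucose, the glucosyl donor for starch, inside plastids. It is built from small and large subunits, and phosphate inhibits it while 3-phosphoglycerate activates it. Plastids of roots import glucose 6-phosphate in exchange for phosphate through GPT translocators, which supplies the carbon for this step.

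The values are normalized counts as the authors deposited them, with column totals from 38831704 to 44635953. The read depth behind them is unknown, because the way they were normalized is not given in the sources used here. Taken as read counts, which the unknown normalization may have scaled, the columns of each group differed by less than counting alone would produce. Chi-square per gene was 0.284 for low_Pi and 0.432 for plus_Pi, against 222 between the first libraries of the groups. Each group was therefore counted as 1 sample, and the labels do not say whether its libraries came from separate cultures. The differences below thus lack replicates, and they carry neither an error nor a p-value. The phosphate-starvation transcript IPS1 had values of 27943 and 26144 in low_Pi and of 99 and 412 in plus_Pi, so the plus_Pi libraries stood apart from each other for this gene. Without plus_Pi replicate 2, which had the higher IPS1 value, the same genes of the 10 were called. All 6 root tissue markers, such as the endodermis gene CASP1 and the root hair gene COBL9, had values above the filter described next.

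Log2 differences are low_Pi minus plus_Pi, taken after adding a pseudocount of 41.5, which was set from the mean column total. Low genes therefore show smaller differences on this scale than their values would give. A gene counted as higher or lower where the groups were at least 2-fold apart on this scale and its mean over the 4 columns was at least 41.5. Of the 10 genes, 8 passed this filter, and SUS2 (mean 39.75) and GPT2 (mean 7.75) did not. SUS4 and APL1 were called higher in low_Pi, and 0 of the 8 were called lower. Over all 18729 genes that passed, 857 (4.58%) were called higher and 838 (4.47%) lower. With median-of-ratios scaling of the columns the split over all genes was 1238 higher and 428 lower, and with quantile normalization 1107 and 502. The median log2 difference was 0.08 over the 8 genes and -0.26 over all genes tested. The latter became 0.00 with median-of-ratios scaling, which centres the typical gene by design. It was -0.08 with quantile normalization, which gives the columns a common distribution.

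**Figure D1:**
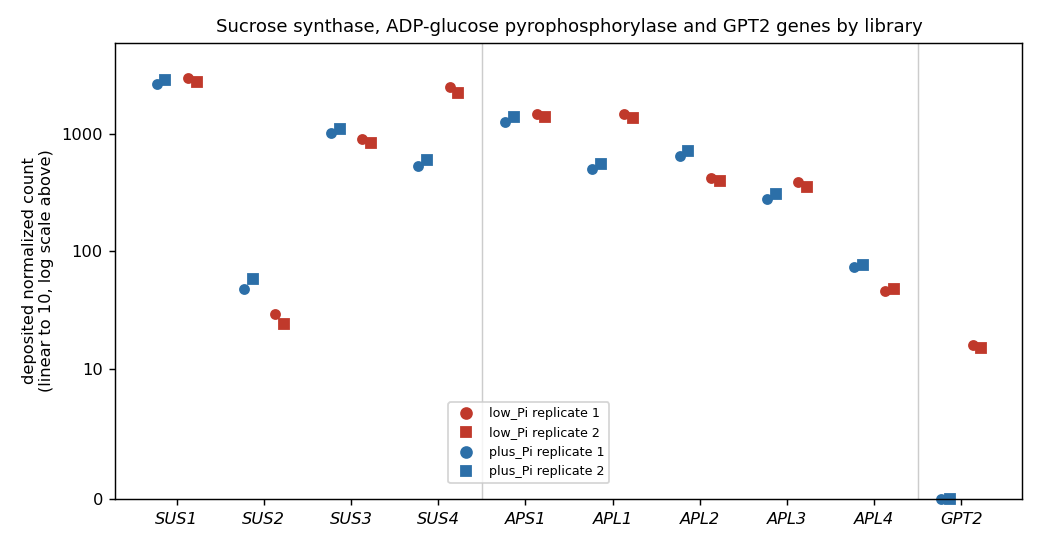
Deposited normalized counts (vertical axis, linear to 10 and logarithmic above) of the 10 genes in each of the 4 libraries, with plus_Pi in blue, low_Pi in red and the replicate number as the marker shape. The low_Pi points of SUS4 (2491 and 2243) and APL1 (1471 and 1369) lie far above the plus_Pi points, while GPT2 was listed at 0 in both plus_Pi libraries.

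Among the sucrose synthase genes, SUS4 stood out at low phosphate. SUS4 (AT3G43190), which encodes a sucrose synthase known to be induced together with SUS1 in oxygen-deprived roots, had 2491 and 2243 in low_Pi and 532 and 601 in plus_Pi. Both low_Pi libraries were above both plus_Pi libraries, and the group means differed 4.18-fold (log2 1.99). This difference was above that of 98.5% of the genes tested. SUS1 (AT5G20830) had 3014 and 2749 at low phosphate and 2690 and 2889 at high phosphate. The groups overlapped, and the log2 difference of 0.05 became -0.02 without low_Pi replicate 1 and 0.32 with median-of-ratios scaling.

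SUS3 and SUS2, which are best known from developing seeds, had lower values in low_Pi, SUS2 at a very low level. SUS3 (AT4G02280) had 902 and 841 against 1011 and 1106. The groups did not overlap, but the log2 difference of -0.27 was close to the median of all genes (-0.26) and was -0.00175 with median-of-ratios scaling. SUS2 (AT5G49190) had 29 and 24 against 48 and 58, the lowest values of the 4 sucrose synthase genes in every library. The mean of 26.5 against 53 was a 2-fold difference of the deposited values, which the pseudocount reduced to log2 -0.47.

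SUS4 and SUS1 are near relatives. Their coding sequences, as annotated in the TAIR10.1 genome, were 84.3% identical over 2427 aligned bases, while the other pairs among SUS1 to SUS4 were 67.7% to 71.6% identical. Reads of the pair could still be told apart: of 2312 stretches of 50 bases in SUS4 exons and 3040 in SUS1 exons, 0 occurred at another place in the genome. The same was true of the other 8 genes. The read length is not given in the sources used here.

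Levels of different genes were compared per kilobase of annotated exon. On this scale SUS4 was at 803 in low_Pi and 192 in plus_Pi, and SUS1 at 773 and 749. The ratio of SUS4 to SUS1 was 1.04 and 1.03 in the low_Pi libraries and 0.25 and 0.26 in the plus_Pi libraries. SUS4 made up 43.1% of the summed SUS1 to SUS4 level in low_Pi and 14.8% in plus_Pi. The share of SUS1 was 41.5% against 57.8% and that of SUS3 was 14.9% against 26.0%. The summed level was 1950 and 1774 in low_Pi and 1240 and 1350 in plus_Pi, a 1.44-fold difference of the means.

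Among the ADP-glucose pyrophosphorylase genes, the large subunit gene APL1 was higher at low phosphate. The small subunit gene APS1 was nearly level in the deposited values. APL1 (AT5G19220), the main large subunit of leaves, had 1471 and 1369 at low phosphate and 507 and 553 at high phosphate. The groups did not overlap and the means differed 2.68-fold (log2 1.35). APS1 (AT5G48300, also ADG1), the catalytic small subunit, had 1478 and 1387 against 1259 and 1392. The groups overlapped, at a log2 difference of 0.11. With median-of-ratios scaling APS1 was at 0.38 and APL1 at 1.62.

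The other large subunit genes went in both directions, all by less than 2-fold. APL2 (AT1G27680) had 420 and 398 in low_Pi and 646 and 718 in plus_Pi (log2 -0.68). It was the gene nearest to a lower call, and passed at a fold size of 1.5. APL3 (AT4G39210), a sugar-inducible form expressed in sink tissue, had 388 and 355 against 278 and 307 (log2 0.31). Its low_Pi values were above its plus_Pi values, by 1.27-fold in the means. APL4 (AT2G21590), the nearest relative of APL3 with 84.2% identity of the coding sequences, had 46 and 48 against 74 and 76 (log2 -0.40). APL3 and APL4 thus lay on opposite sides of 0 at low phosphate, but APL4 was close to the median of all genes (-0.26). The APL4 mean of 61 was near the filter, and its log2 difference ran from -0.63 to -0.15 over the other settings.

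Without overlap between the groups, 3 of the 8 genes tested were above (SUS4, APL1 and APL3) and 3 were below (SUS3, APL2 and APL4) in low_Pi. Over all genes tested, these shares were 21.9% above and 62.5% below. A lack of overlap is therefore common in these columns and says little about any single gene.

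Per kilobase of exon, APL1 was at 820 in low_Pi and 306 in plus_Pi, and APL2 at 191 and 318. In plus_Pi, APL1 and APL2 were thus at nearly the same level, with 38.7% and 40.2% of the summed large subunit level. In low_Pi, APL1 had 68.1% and APL2 had 15.8%. APL3 had 14.7% in low_Pi and 17.6% in plus_Pi, and APL4 had 1.41% and 3.44%. The summed large subunit level was 1246 and 1162 in low_Pi and 753 and 828 in plus_Pi. Its ratio to APS1 was 1.60 and 1.59 in low_Pi and 1.14 and 1.13 in plus_Pi.

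**Figure D2:**
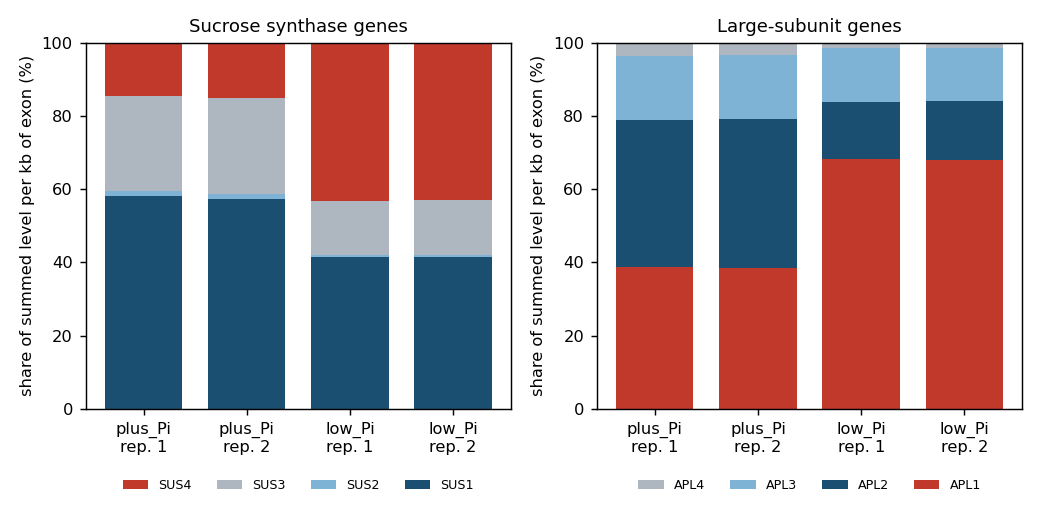
Share of each gene in the summed level per kilobase of annotated exon (vertical axis, percent) for SUS1 to SUS4 on the left and APL1 to APL4 on the right, with 1 bar per library. SUS4 filled 43.1% of the low_Pi and 14.8% of the plus_Pi sum, and APL1 filled 68.1% and 38.7%.

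The value of APL1 carries a further limit. In TAIR10.1, 602 of the 1732 exonic bases of APL1 overlap a long non-coding RNA gene on the opposite strand (AT5G19221), and 43 overlap the protein-coding gene AT5G19210, whose mean value was 151.25. The protocols do not mention strand, so reads of APL1 and of its antisense partner cannot be told apart. APL4 overlaps AT2G21595 on the opposite strand, which was at 0 in all libraries, and the other 8 genes overlap no annotated gene.

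GPT2 (AT1G61800), a translocator gene that responds to sugars, was listed at 0 in both plus_Pi libraries and at 16 and 15 in low_Pi. These values were too low for the filter, and no fold is given against 0. GPT1 (AT5G54800), the other translocator gene of this type, had 9662 and 8983 in low_Pi and 5611 and 6191 in plus_Pi (log2 0.66), which was under 2-fold. Nearly all of the deposited signal for GPT translocators therefore came from GPT1 in both groups.

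Promoter sequences of all 10 genes were searched for the site bound by the phosphate response factor PHR1. Those of the 2 genes called higher and of GPT2, which was under the filter and not called, are printed. This site, called P1BS, is GNATATNC and reads the same on both strands. Each sequence covers 250 bases before and 50 bases after the outermost annotated start of the gene in TAIR10.1, matched by identifier, on the strand of the gene, and the 2 motifs that were searched are in capitals. APL1 and SUS4 are on the minus strand of chromosomes 5 and 3, and GPT2 is on the plus strand of chromosome 1.
APL1: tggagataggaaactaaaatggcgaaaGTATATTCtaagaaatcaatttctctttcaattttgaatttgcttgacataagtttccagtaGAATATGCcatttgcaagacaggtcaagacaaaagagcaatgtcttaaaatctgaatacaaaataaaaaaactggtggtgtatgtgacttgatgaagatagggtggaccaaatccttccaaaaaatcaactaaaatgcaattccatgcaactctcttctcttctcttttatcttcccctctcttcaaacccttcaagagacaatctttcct
GPT2: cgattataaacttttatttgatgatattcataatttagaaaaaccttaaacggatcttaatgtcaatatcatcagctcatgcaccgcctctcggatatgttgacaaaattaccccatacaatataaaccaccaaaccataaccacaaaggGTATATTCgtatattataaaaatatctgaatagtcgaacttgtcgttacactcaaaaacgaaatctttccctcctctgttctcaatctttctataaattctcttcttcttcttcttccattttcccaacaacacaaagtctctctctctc
SUS4: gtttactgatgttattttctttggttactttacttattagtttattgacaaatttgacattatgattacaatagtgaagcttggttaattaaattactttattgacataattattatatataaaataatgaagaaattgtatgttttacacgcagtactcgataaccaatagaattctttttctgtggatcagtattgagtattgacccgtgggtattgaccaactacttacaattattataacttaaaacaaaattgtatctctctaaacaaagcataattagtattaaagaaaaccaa

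APL1 had 2 P1BS matches in this window, GTATATTC beginning 223 bases and GAATATGC beginning 161 bases before the start. GPT2 had 1, GTATATTC beginning 100 bases before the start. The other 8 genes, SUS4 included, had none. Of 27444 nuclear promoters of the same length, 6.25% had at least 1 match and 0.299% had 2 or more. In the 1000 bases before the start, SUS1 (876 bases before) and APL3 (GTATATGC, 251 bases before) each had 1 match as well, where 20.3% of genes have at least 1. The G-box CACGTG, bound by bZIP and bHLH factors, occurred in none of the 10 genes in either window, against 7.68% of the 300-base promoters and 14.8% of the 1000-base windows. A match describes the letters of the window and does not show binding, and only the outermost annotated start of each gene was searched.

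Of 4 close homologues outside the 10 genes, 1 was called higher and 0 lower (median log2 0.40), and GPT1, described above, was also higher at a fold size of 1.5. The gene called was APS2. APS2 (AT1G05610), a small subunit relative thought to have little catalytic activity, had 471 and 433 in low_Pi and 71 and 78 in plus_Pi (6.07-fold, log2 2.09). With a pseudocount of 208 its log2 difference was 1.22. It shares 37 exonic bases with the opposite-strand gene AT1G05600, whose mean value was 221.5. The phloem sucrose synthase genes SUS5 (log2 0.14) and SUS6 (-0.12) were under 2-fold.

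Of 8 sucrose synthesis genes tested, 3 were called higher and 0 lower (median log2 0.40), and all 3 encode sucrose phosphate synthases. The other sucrose phosphate synthase gene, SPS3F (AT1G04920), had 11 and 11 in low_Pi and 10 and 10 in plus_Pi, under the filter. SPS4F (AT4G10120) had 3020 and 2806 in low_Pi and 156 and 221 in plus_Pi (log2 3.70, and 2.98 with a pseudocount of 208). It shares 166 exonic bases with the opposite-strand gene AT4G10130, whose mean value was 384. SPSA2 (AT5G11110) had 9238 and 8666 against 1886 and 2167 (log2 2.12), and SPSA1 (AT5G20280) had 15895 and 14742 against 3964 and 4509 (log2 1.85). Of 7 genes that interconvert UDP-glucose and hexose phosphates, 0 were called (median 0.03). The 2 with the highest deposited mean over the 4 columns were UGP1, a UDP-glucose pyrophosphorylase gene that acts next to sucrose synthase, at log2 0.64, and the plastid phosphoglucose isomerase gene PGI1, at -0.17.

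The invertases, the other route of sucrose cleavage, had 1 gene called lower and 1 higher among 12 tested (median -0.12). CINV1 (AT1G35580), a cytosolic invertase gene, had 9193 and 8526 at low phosphate and 20371 and 22226 in plus_Pi, a log2 difference of -1.26. With median-of-ratios scaling it was at -0.98 and was not called. CWINV3 was at 1.03, and was not called without plus_Pi replicate 1 (0.99) or with a pseudocount of 208 (0.76). Of 8 hexokinase and fructokinase genes, 1 was lower, the pfkB-like carbohydrate kinase gene AT3G59480 (log2 -1.55), with a median of -0.30.

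Sucrose carriers went in both directions, with 1 of 10 higher and 2 lower (median -0.05). SUC1 (AT1G71880), a proton-coupled sucrose importer gene, had 2358 and 2163 in low_Pi and 10140 and 10987 in plus_Pi (log2 -2.20). SWEET12 was lower at -1.79 and SWEET13 higher at 1.95, and both encode sucrose facilitators. SWEET13 was at 1.20 with a pseudocount of 208. Of 5 plastid envelope carriers, the triose phosphate translocator gene TPT was lower (log2 -1.46), with a median of -0.42.

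Downstream of ADP-glucose, 1 of 13 genes of starch polymer synthesis was called higher and 0 lower (median -0.21, or 0.05 with median-of-ratios scaling). GBSS1 (AT1G32900), the granule-bound enzyme that makes amylose, had 272 and 249 at low phosphate and 73 and 80 in plus_Pi, a log2 difference of 1.36. With a pseudocount of 208 it was at 0.72 and was not called. Of 20 starch breakdown genes, 2 were higher and 0 lower (median -0.29). The beta-amylase gene BAM1 had 5240 and 4859 against 2118 and 2363 (log2 1.16). BAM5, another beta-amylase gene, had 234 and 219 against 1 and 5, so its log2 difference of 2.59 depended on the pseudocount, and was 5.07 and 1.04 with pseudocounts of 4.15 and 208. The split was 3 higher with median-of-ratios scaling. A stricter filter, at 208, left out GBSS1 and BAM5, and then 0 of 11 starch polymer genes and 1 of 18 starch breakdown genes were called higher.

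**Figure D3:**
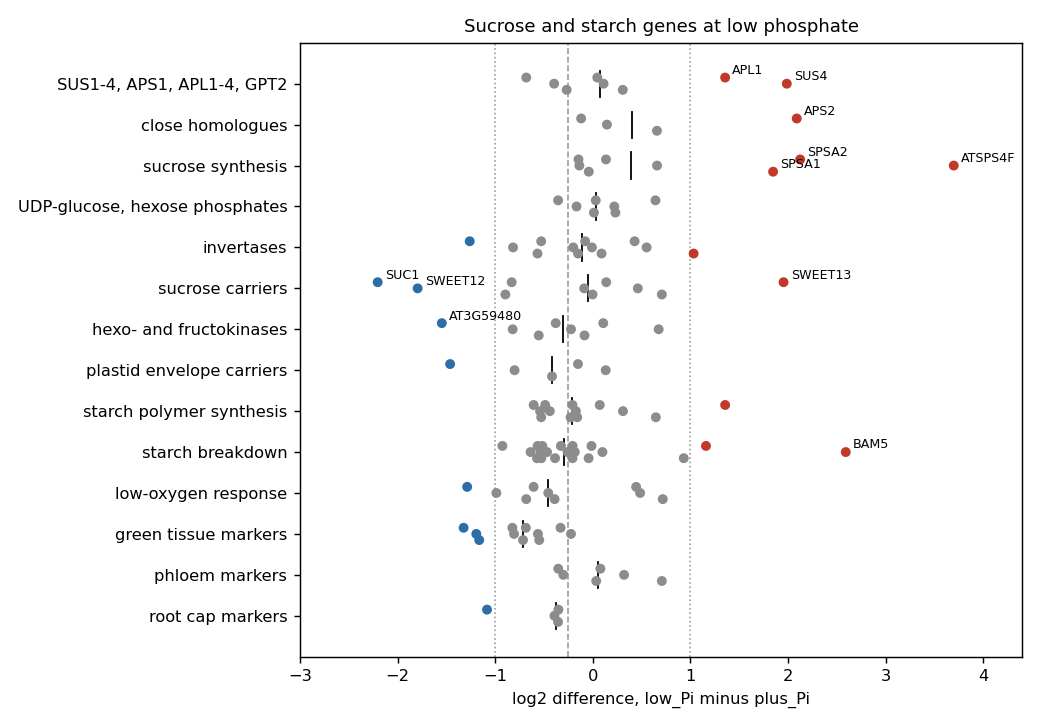
Log2 difference between low_Pi and plus_Pi (horizontal axis) of each gene that passed the filter, by gene list (the root tissue markers and IPS1 are not drawn), with genes at least 2-fold higher in red and at least 2-fold lower in blue. Short black lines are list medians, dotted lines mark 2-fold and the dashed line is the median of all genes tested, at -0.26. SUS4 (1.99) and APL1 (1.35) lie to the right of the other genes of their row, and SPS4F, labelled ATSPS4F, is the gene drawn farthest right, at 3.70.

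Because SUS1 and SUS4 respond to low oxygen, 11 other low-oxygen response genes were read beside them. Of 9 that passed the filter, 0 were called higher and 1 was called lower, the transcription factor gene HRA1 (log2 -1.29, or -0.67 and not called with a pseudocount of 208), and 2 were lower when plus_Pi replicate 1 or low_Pi replicate 1 was left out. The list median was -0.46. ADH1, the alcohol dehydrogenase gene often used as a marker of this response, had 255 and 226 in low_Pi and 125 and 135 in plus_Pi (log2 0.72). PDC1 (log2 0.48) and SAD6 (0.44) were also above 0. The others that passed, besides HRA1, were below 0: HB1 (-0.99), HRE1 (-0.68), PCO1 (-0.61), PDC2 (-0.46) and LBD41 (-0.39). HRE1 shares 124 exonic bases with the opposite-strand gene AT1G72370, whose mean value was 18698.5. The 2 genes under the filter were PCO2, with 51 and 45 in low_Pi and 10 and 10 in plus_Pi, and HRE2, with 33 and 32 against 8 and 11. The list thus held genes with higher and with lower values in low_Pi, and its part in the difference of SUS4 was not tested. The summed value of the 11 genes was 3728 and 3461 in low_Pi and 3914 and 4295 in plus_Pi.

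Summed values of markers of other cell types differed between the groups. The 11 green tissue markers summed to 4470 and 4173 in low_Pi and 7034 and 7675 in plus_Pi, with 3 of 11 called lower (CA1, GAPB and PSAF), 1 with median-of-ratios scaling and 0 with a pseudocount of 208. The median of these 11 was log2 -0.72, against -0.26 over all genes tested. CA1 shares 343 exonic bases with its neighbour LSF1. The 6 phloem markers summed to 16294 and 15136 against 12920 and 14134, with 0 called and a median of 0.06. SUC2, which loads sucrose in companion cells and is also among the sucrose carriers, was at log2 0.71, and AHA3 at -0.35. The phloem sum includes the SUC2 values of 6399 and 5965 in low_Pi and of 3605 and 3941 in plus_Pi. Root cap markers summed to 629 and 586 against 962 and 1064, with a median of -0.37, against -0.26 over all genes tested. Of these 4, SMB was called lower (-1.08), and none was with median-of-ratios scaling, with quantile normalization or with a pseudocount of 208. Of the 6 root tissue markers, 1 was called higher and 0 lower (median 0.24). The gene called was the root hair gene COBL9, with 5022 and 4661 in low_Pi and 1428 and 1649 in plus_Pi (log2 1.63). The part of cell composition in the differences of SUS4 and APL1 was not tested. In whole roots, fewer cells of a type and less RNA per cell cannot be told apart.

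The genes whose values over the 4 columns were most like those of SUS4 were AT5G35050, AT5G18910 and the sulfate transporter gene SULTR1;1. Likeness was the Euclidean distance of log2 values centred on the mean of each gene, which was 0.021 to 0.022 for these. With 4 columns in 2 groups, this measure reads little more than the size of the difference, which was log2 1.97 to 1.99 for the 3 genes. That size includes the pseudocount, and the deposited means in low_Pi and plus_Pi were less alike. They were 139 and 4.5 for AT5G35050, 515.5 and 98.5 for AT5G18910, and 920.5 and 201.5 for SULTR1;1. For SUS4 they were 2367 and 566.5.

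**Figure D4:**
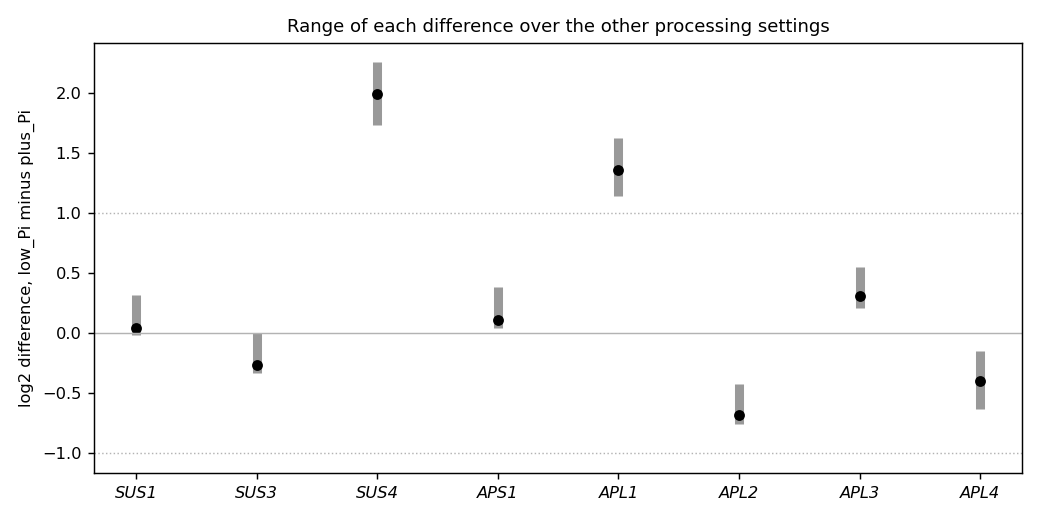
Log2 difference of each of the 8 genes that passed the filter (vertical axis), with the reported value as a black point and the range over the other processing settings as a grey bar. Dotted lines mark 2-fold. SUS4 (1.73 to 2.25) and APL1 (1.14 to 1.62) stay above the upper line, and the bar of SUS1 crosses 0.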

How the data were processed

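RNA from roots of 4 libraries, 2 per phosphate level, was sequenced after selection of polyadenylated RNA, per the labels' protocols. CASAVA 1.4, HISAT2, HTSeq, edgeR and FastQC are named, with no role for each, by the submitters' processing notes. The authors deposited 1 table of normalized counts, whole numbers treated here as a score and no count model was fitted. Their normalization, the genome build and the annotation are not given in the sources used here. All 27444 nuclear protein-coding genes of the TAIR10.1 RefSeq annotation have a row, so that annotation was used, by identifier, for names, exon lengths, overlaps and promoter sequences, and no coordinates are printed. In all, 27445 of the identifiers are nuclear and 210 are not. Columns were matched to samples by name, and the second low_Pi column to its group only, since its name also resembles a plus_Pi title.

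The replicate check used genes whose 2 columns summed to at least 20. Values, the pseudocount, the filter and the 2-fold rule were applied to the whole table, with Python 3.11.15, numpy 2.4.6, pandas 2.3.3 and Biopython 1.88. The code for the calls was also run on simulated data with large changes and counting noise only. That run checks the code and not the calls made here. The 10 genes and the 15 other lists were chosen with earlier results of these data known. The text names all 10 genes and, per list, up to 3 genes called with the largest differences, or the 2 with the highest mean where none was. SUS5, SUS6, GPT1, SPS3F and the low-oxygen genes other than HRA1 were picked with their values in view. Other pseudocounts, filters, scalings and fold sizes were tried, and each library was left out in turn.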

Additional observations from a re-analysis of the deposited data

How the results depend on the processing

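SUS4 and APL1 were called higher, and no other gene of the 10, under each of 12 alternatives in pseudocount, filter, scaling, fold size and libraries used. The changes of filter and the fold size of 1.5 could not have removed these calls. The pseudocount of 4.15 and each scaling raised both differences, so they were no strict check either. With the pseudocount of 208, which lowers differences, SUS4 was at log2 1.73 and APL1 at 1.14. Leaving out a library was a weak check, since the columns of a group were nearly alike. The count of lower genes among the 10 was 0 under 11 of them and 1 (APL2) at a fold size of 1.5. Over all genes, 857 higher calls became 565 with a pseudocount of 208 and 1643 at a fold size of 1.5. The 838 lower calls became 428 under median-of-ratios scaling and 502 under quantile normalization. They became 1310 for a pseudocount of 4.15, 350 for a pseudocount of 208 and 3885 at a fold size of 1.5. Without 1 library, higher calls ran from 796 to 943 and lower calls from 695 to 1027.

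No difference among the 8 genes tested moved by over 1.5-fold in any setting under which the gene passed the filter. No paired analysis was possible because each group was counted as 1 sample and the differences come from no test. The replicate block was not run for that reason. Read depth is unknown, which limits what can be said of GPT2 and SUS2, whose values were lowest.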
